A study of Arabidopsis thaliana with 4 samples.

Results

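The methionine sulfoxide reductase B genes of Arabidopsis thaliana, MSRB1 to MSRB9, were described in leaf primordia of wild type and of the mutant an3-4. The members were the 9 genes with these symbols, and the annotation used here lists a probe set for 4 of them, MSRB3, MSRB5, MSRB6 and MSRB9, each with 1 probe set for 1 gene. These are 4 of 22746 probe sets tested and 4 of 13356 genes that the annotation names. MSRB1, MSRB2, MSRB4, MSRB7 and MSRB8 were not analysed here; they may be among the 8730 probe sets for which the annotation lists no gene. Here and for the other genes, measured means having a probe set that the annotation names. The family was chosen by the low signal of MSRB5 in an3-4 against wild type in these same arrays, so every difference between the genotypes in these genes, and whether the fit called it, is given as a description that supports nothing.

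The samples were 4 Affymetrix expression arrays, 2 of wild-type plants and 2 of an3-4 plants, both labelled with the ecotype Col-0. All plants grew in continuous light at 22 °C, and the first leaf primordia were taken 7 days after sowing. The mutant lacks normal function of ANGUSTIFOLIA3, a transcriptional coactivator also named GIF1 that promotes cell proliferation in young leaves. The labels do not say whether the arrays of a genotype came from separate batches of plants, so the spread between them may be technical.

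Oxidants turn methionine in proteins into methionine sulfoxide, which has an R and an S form at the sulfur atom. B-type reductases return the R form to methionine, A-type reductases act on the S form, and most of these enzymes draw their electrons from thioredoxins. In Arabidopsis the family is spread over cell compartments: MSRB1 and MSRB2 act in plastids, MSRB3 in the endoplasmic reticulum, and MSRB7 and MSRB8 in the cytosol. The family is known for protecting leaves against oxidative stress, and MSRB3 for its part in cold acclimation.

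Of the 9 genes, 8 lie on chromosome 4 in 2 tandem groups of 4. In the RefSeq gene order of assembly TAIR10.1 the first group runs MSRB3 (AT4G04800), MSRB4 (AT4G04810), MSRB5 (AT4G04830) and MSRB6 (AT4G04840). MSRB3 and MSRB4 adjoin, the pseudogene AT4G04820 separates MSRB4 from MSRB5, and AT4G04995 lies between MSRB5 and MSRB6. No other protein-coding gene lies within the group. The second group runs MSRB7 (AT4G21830), MSRB8 (AT4G21840), MSRB9 (AT4G21850) and MSRB2 (AT4G21860), with no gene between its members. Between MSRB6 and MSRB7 the table lists 1670 protein-coding genes. MSRB1 (AT1G53670) is on chromosome 1. The measured genes are thus 3 of the first group and 1 of the second.

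All 4 measured MSRB genes had lower signals on both an3-4 arrays than on either wild-type array. On the log2 scale the mutant differed from wild type, as estimate ± standard error (SE) of the fit, by -2.08 ± 0.35 for MSRB5, -0.90 ± 0.26 for MSRB6, -0.58 ± 0.25 for MSRB9 and -0.35 ± 0.30 for MSRB3. Their median was -0.74, against 0.02 over all probe sets tested. Non-overlapping signals with an3-4 lower were found for 13.9% of all probe sets as deposited and for 20.8% at 1 trimmed mean, a common scale described below, at which all 4 members were again non-overlapping. On same-numbered arrays an3-4 was lower for all 4 members in both replicates, as it was for 27.6% of all probe sets. In the limma fit with all probe sets, MSRB5 and MSRB6 were called lower at a Benjamini-Hochberg adjusted p under 0.05 and no member was called higher. The fit called 1.21% of all probe sets lower and 1.16% higher. Since the same values chose the family, nothing is read from these calls.

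MSRB5 showed the widest separation of the 4. Its signal, a MAS5 intensity on a linear scale, was 102 and 103 on wild-type arrays 1 and 2, and 29.1 and 20.0 on an3-4 arrays 1 and 2. The wild-type arrays were nearly equal as deposited, and the lower of them lay well above the higher an3-4 array. At 1 trimmed mean the wild-type signals of MSRB5 were 111 and 94.9, and both still lay above the an3-4 signals of 31.8 and 18.4. Group means were 102 ± 0.873 and 24.5 ± 6.44 (SD, n = 2). On arrays with the same replicate number, the an3-4 signal was 28.6% of the wild-type signal for replicate 1 and 19.4% for replicate 2. Both mutant signals fell short of their array's 40th percentile, 34.1 and 42.4, which served as a working floor since no detection calls were used. With signals raised to that floor the log2 fold change was -1.43, which corresponds to a 2.69-fold lower level in an3-4. The floor is not a detection limit, so this value is no firm minimum. With an offset of 32 the log2 fold change was -1.25.

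MSRB6, the next MSRB gene after MSRB5 in the tandem group, had signals of 185 and 124 in wild type and of 101 and 65.6 in an3-4. The replicate 1 array was the higher one in both genotypes, while the replicate 2 arrays carried the higher overall scale. The groups did not overlap, with a gap of 0.30 on the log2 scale between the lower wild-type and the higher an3-4 signal. Within replicate 1 the an3-4 signal was 54.8% of wild type, and within replicate 2 it was 52.8%. All 4 signals lay above the floor. The means were 154 ± 42.7 and 83.4 ± 25.2 (SD, n = 2), and the difference of the mean log2 signals corresponds to a 1.86-fold lower level in an3-4.

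MSRB9, the measured gene of the second tandem group, had signals of 129 and 188 in wild type and of 95.2 and 114 in an3-4. Here the replicate 2 arrays were the higher ones in both genotypes, and the gap between the groups was 0.18 on the log2 scale. The an3-4 signal was 74.0% of the wild-type signal on the replicate 1 arrays and 60.5% on the replicate 2 arrays. Means were 158 ± 42.1 and 105 ± 13.2 (SD, n = 2). MSRB9 was not called in the limma fit of the signals as deposited.

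MSRB3, which encodes the enzyme of the endoplasmic reticulum, differed least. Its signals were 73.4 and 88.6 in wild type and 59.9 and 67.1 in an3-4. The gap between the groups was 0.13 on the log2 scale, and the difference of their means was -0.35, with an SE of 0.30. The an3-4 signal was 81.6% and 75.7% of the wild-type signal on replicate 1 and 2 arrays, and the means were 81.0 ± 10.7 and 63.5 ± 5.10 (SD, n = 2). The log2 fold change of MSRB3 was not called at either scale described next.

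**Figure D1:**
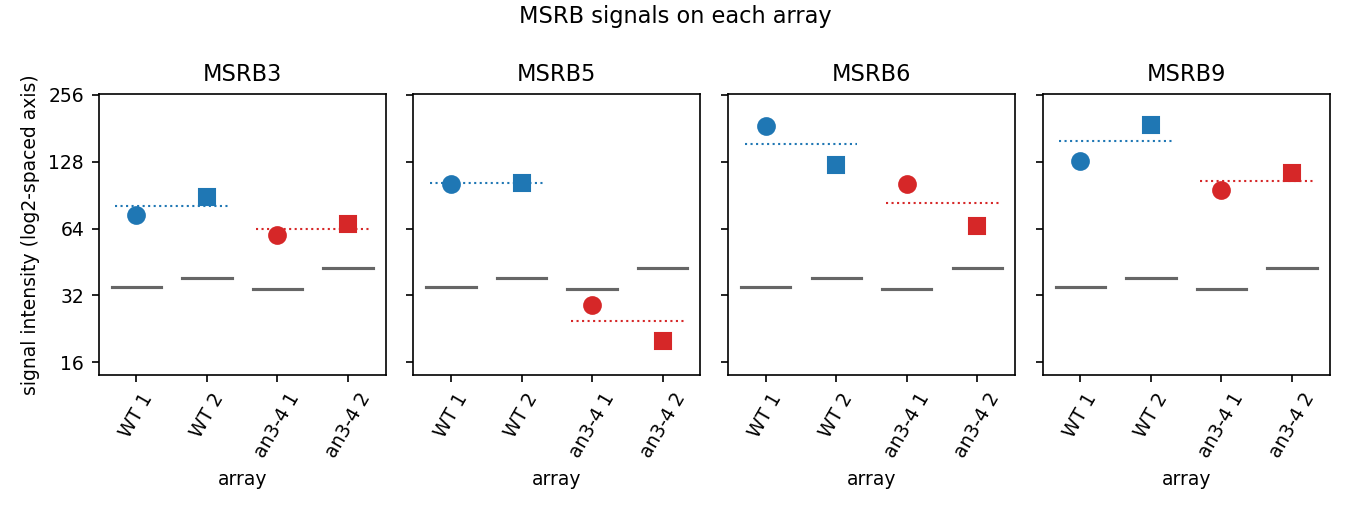
Signal intensity (log2-spaced axis) of MSRB3, MSRB5, MSRB6 and MSRB9 on each of the 4 arrays, with wild type (WT) in blue, an3-4 in red, circles for replicate 1 and squares for replicate 2. Dotted lines are group means and grey bars the 40th percentile of each array; the an3-4 signals lie below both wild-type signals for each gene, and only those of MSRB5, 29.1 and 20.0, lie under the grey bars.

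The calls of 2 members depended on how the arrays were scaled. Mean signals with 2% of values trimmed from each end were 143 on both replicate 1 arrays and 169 on both replicate 2 arrays, so same-numbered arrays share a scale and the fold changes keep their values when all arrays are brought to 1 trimmed mean. The SE then changes, to 0.31 for MSRB6 and 0.13 for MSRB9. At 1 trimmed mean the fit called MSRB5 and MSRB9 lower, and MSRB6 and MSRB3 were not called. At that scale the wild-type signals of MSRB6 were 202 and 115, and those of MSRB9 141 and 174. The fit at 1 trimmed mean called 2.51% of all probe sets lower and 2.66% higher. As deposited, MSRB6 lost its call in 3 of the 4 fits that leave out 1 array, with log2 fold changes of -0.61 and -1.18 without wild-type replicates 1 and 2, and -0.58 without an3-4 replicate 2.

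**Figure D2:**
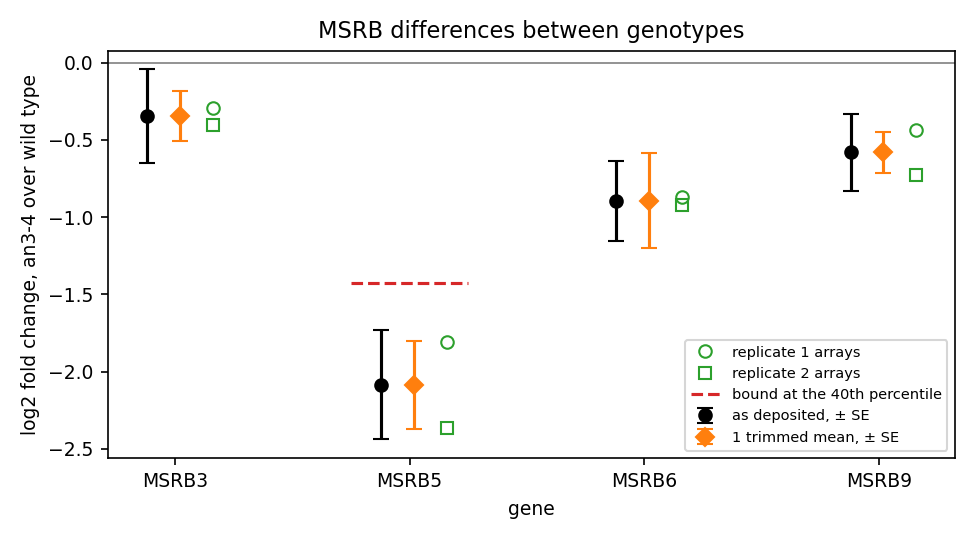
Log2 fold change of an3-4 over wild type for the measured MSRB genes, as estimate ± SE for signals as deposited (black) and at 1 trimmed mean (orange), and for same-numbered arrays alone (green). Estimates run from -0.35 for MSRB3 to -2.08 for MSRB5, whose dashed line marks the value of -1.43 with signals raised to the 40th percentile; for MSRB6 the 2 green symbols nearly coincide, at -0.87 and -0.92.

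The tandem group was set against the rest of the family as measured, 3 genes against MSRB9 alone. The mean log2 fold change was -1.11 for MSRB3, MSRB5 and MSRB6, and -0.58 for MSRB9, a difference of -0.53. Because MSRB5 lay under the floor in an3-4, that difference has no exact size: it was -0.31 with signals raised to the floor. On the arrays of replicate 1 alone the difference was -0.55 and on those of replicate 2 it was -0.50. In fits that leave out 1 array it was -0.21 and -0.85 without wild-type replicates 1 and 2, and -0.83 and -0.23 without an3-4 replicates 1 and 2. Without MSRB5 the tandem mean was -0.62 and the difference from MSRB9 was -0.04. MSRB3 differed less than MSRB9 and MSRB6 more, but MSRB6 differed less than MSRB9 without wild-type replicate 1 (-0.61 against -0.85) or an3-4 replicate 2 (-0.58 against -0.71). These values carry no test.

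The signals of the members were also compared over the 4 arrays. At 1 trimmed mean, with each gene's log2 signals centred on their own mean, MSRB3 and MSRB9, from different tandem groups, were the most alike, at a Euclidean distance of 0.31 on the log2 scale. MSRB5 was 1.26 from MSRB6, the next member of its group, 1.65 from MSRB9 and 1.82 from MSRB3. These distances contain the genotype difference that chose the family, so they are a description and no separate trait. Over all named genes, the 5 nearest to MSRB5 over the same 4 arrays were AT1G33790 (distance 0.12), ECS1 (0.21), AT4G39753 (0.23), AT5G52330 (0.34) and AT1G23960 (0.36). The same contrast picked these genes, so their low signals in an3-4 support nothing. AT1G33790 had signals of 165 and 186 in wild type and of 48.3 and 34.7 in an3-4, a log2 difference of -2.10. ECS1 was much brighter, with 1785 and 1923 in wild type and 566 and 431 in an3-4. AT4G39753 and AT5G52330 had signals under the 40th percentile on all arrays, and no fold change is given for them.

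Genes beside the members on chromosome 4 were examined next, as the 10 nearest named genes on each side. Around the MSRB3 to MSRB6 group, 1 of 20 neighbours was called lower in limma as deposited and none higher, against 1.20% lower and 1.02% higher over all named genes. The called neighbour was AT4G05040, with signals of 75.5 and 71.0 in wild type and of 22.7 and 30.3 in an3-4, a difference of -1.48 ± 0.37 on the log2 scale (limma adjusted p = 0.00593). Both of its an3-4 signals lay under the floor, and raised to it they leave a log2 fold change of -0.95. In fits with 1 array left out, AT4G05040 was not called without replicate 1 (-1.44) or 2 (-1.53) of wild type, or without replicate 1 of an3-4 (-1.27). At 1 trimmed mean 3 of the 20 were called lower, against 2.14% of all named genes, and none higher, against 2.18%. Those called lower were AT4G05040, AT4G04670 and AT4G04750, and the latter pair, singled out after their values were seen, had log2 fold changes of -0.82 and -0.66.

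For 9 of these 20 neighbours the an3-4 signals lay below the wild-type signals without overlap, and for 3 they lay above, against 14.1% and 17.0% of all named genes. Of the 20, 8 had all 4 signals under the 40th percentile. Among the 10 neighbours outside the dimmest 40% of probe sets by mean signal, 5 had non-overlapping lower signals and none higher, against 12.2% and 17.2% of named genes so restricted. The median log2 fold change of these 10 neighbours was -0.21, with a range from -1.48 for AT4G05040 to 0.19 for DER2.2, a derlin gene of protein degradation at the endoplasmic reticulum, named here only as the upper end of the range. The part of this chromosomal neighbourhood in the values of MSRB3, MSRB5 and MSRB6 was not tested.

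Around MSRB9, none of 20 neighbours was called lower as deposited and 1 was called higher, AT4G21740, whose signals, from 0.338 to 6.75, all lay under the floor, so no fold change is given. These counts stand against the 1.20% and 1.02% of all named genes given above. At 1 trimmed mean AT4G21740 was no longer called and 1 neighbour was called lower, against 2.14% of all named genes. It was AT4G21870, with signals of 796 and 843 in wild type and of 532 and 668 in an3-4. Non-overlapping signals were lower for 1 neighbour and higher for 5, against 14.1% and 17.0% of all named genes. Of the 10 neighbours outside the dimmest 40%, 1 had non-overlapping lower and 1 non-overlapping higher signals, against 12.2% and 17.2% of named genes so restricted, and their median log2 fold change was -0.04. The contrast between the surroundings of both groups was not tested. Between AT4G03340, a gene picked with earlier results of these data known, and MSRB3 lie 91 named genes. As deposited none of these was called in either direction. Over the 1935 named genes of chromosome 4, 1.45% were called lower and 1.24% higher as deposited, so a count of 0 among 91 genes lies near the background. At 1 trimmed mean AT4G04670 and AT4G04750, which lie in this interval, were called lower, and its other genes were not counted at that scale.

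**Figure D3:**
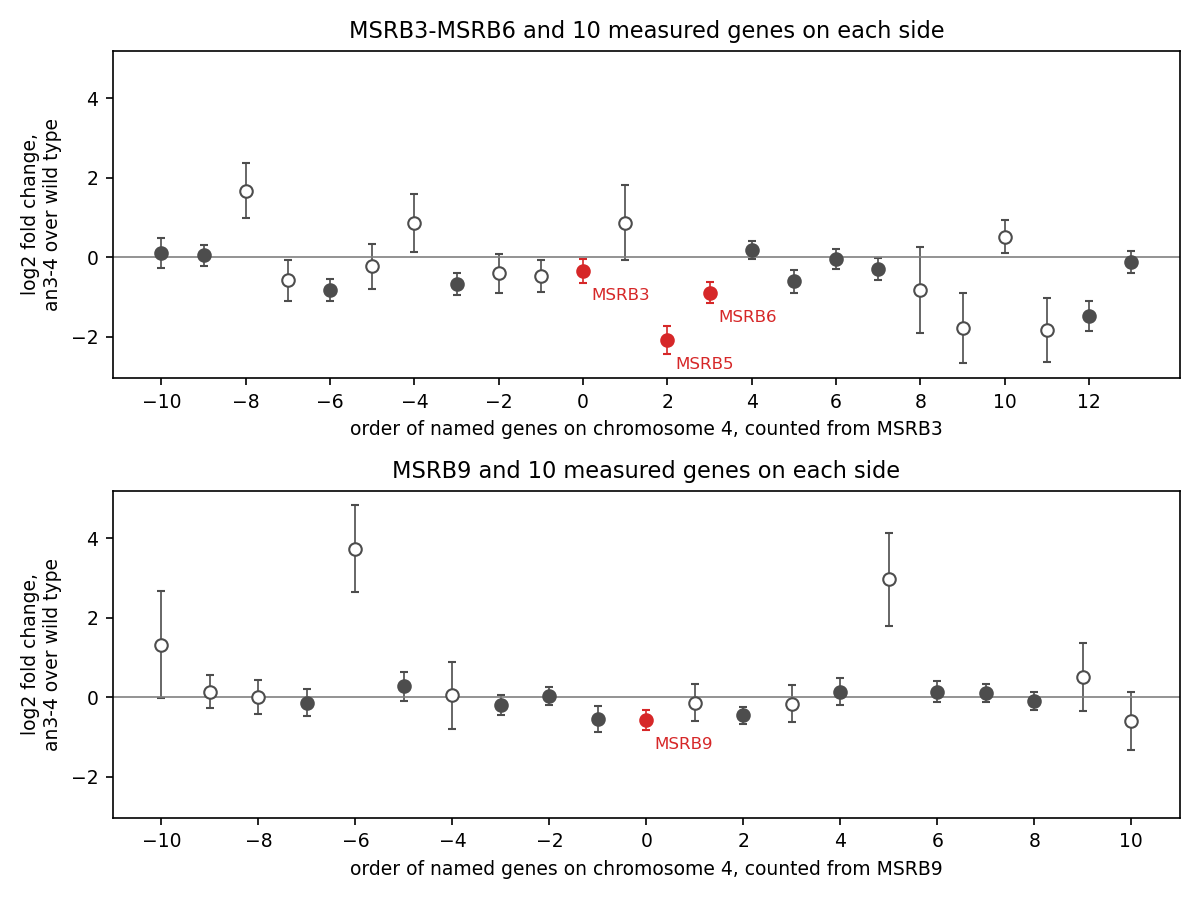
Log2 fold change ± SE of an3-4 over wild type for named genes in their order on chromosome 4, around MSRB3, MSRB5 and MSRB6 (top) and MSRB9 (bottom), with MSRB genes in red. Open symbols are genes among the dimmest 40% of probe sets; MSRB5 at -2.08 is the lowest point of the top panel, and the filled neighbours there run from -1.48 to 0.19.

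The partners of the MSRB enzymes were looked up in 6 gene lists with 86 genes, of which 25 had a named probe set. None of the 25 was called in limma as deposited. Only 1, GRXC1, had an unadjusted limma p under 0.05, as did 2148 of the 22746 probe sets tested. At the 1.20% lower and 1.02% higher of all named genes, a count of 0 in 25 is near the background and says nothing about these partners. Their median log2 fold change was -0.05, and the genes with any signal above the floor ranged from -0.38 to 0.61. At 1 trimmed mean 1 was called higher, against 2.18% of all named genes, and 0 were called lower, against 2.14%. Of the 5 A-type reductase genes, MSRA5 had a probe set that the annotation names, with signals of 153 and 168 in wild type and of 141 and 135 in an3-4, a log2 fold change of -0.22 ± 0.24. Its signals did not overlap between the genotypes, though the difference was smaller than its SE as deposited. At 1 trimmed mean the SE was 0.13, which the difference exceeded, and MSRA5 was not called.

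Of the 22 listed genes of thioredoxins and their reductases, 7 were measured: NTRC, TRXM2, TRXF2, THX, TY1, TY2 and FTRB. Their log2 fold changes ran from -0.15 to 0.20, with a median of 0.01. The listed reductase genes NTRA and NTRB had no probe set that the annotation names. Whether the measured 7 supply electrons to the measured MSRB enzymes was not tested. FTRB, the catalytic subunit of ferredoxin-thioredoxin reductase, had 0.20 ± 0.21, and THX, the plastid thioredoxin x, had 0.18 ± 0.21. At 1 trimmed mean the SE was 0.07 for FTRB and 0.10 for THX, and neither was called.

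Glutaredoxins, the other small thiol-disulfide proteins that can serve some B-type reductases, were measured for 6 of 10 listed genes, with a median of -0.09. GRXC1 had signals of 84.3 and 112 in wild type and of 136 and 161 in an3-4, so the groups did not overlap. Its log2 fold change of 0.61 ± 0.25 was not called as deposited (limma adjusted p = 0.284) and was called at 1 trimmed mean (limma adjusted p = 0.0218). GRX480, a CC-type glutaredoxin, had all 4 signals under the floor.

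Among 4 of 18 measured genes of methionine and S-adenosylmethionine metabolism the median log2 fold change was -0.03. CBL, cystathionine beta-lyase of methionine synthesis, had -0.25 ± 0.21, and MMT, methionine S-methyltransferase, had 0.11 ± 0.21. At 1 trimmed mean the SE was 0.09 for CBL and 0.08 for MMT, and neither was called. Among 6 of 24 measured genes that remove reactive oxygen the median was -0.04. SAPX, the stromal ascorbate peroxidase, had 0.33 ± 0.21, and GR1, a glutathione reductase, had -0.30 ± 0.21. At 1 trimmed mean the SE was 0.16 for SAPX, which was not called, and 0.07 for GR1. GR1 was not called as deposited or at 1 trimmed mean, but was called lower with median centring (-0.35, limma adjusted p = 0.0397) and with the replicate number as a block (-0.30, limma adjusted p = 0.0214). UPOX, which is induced by oxidative stress and was the measured gene of 7 on that list, had -0.33 ± 0.42, with 3 of its 4 signals under the floor and a value of -0.062 when they are raised to it.

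**Figure D4:**
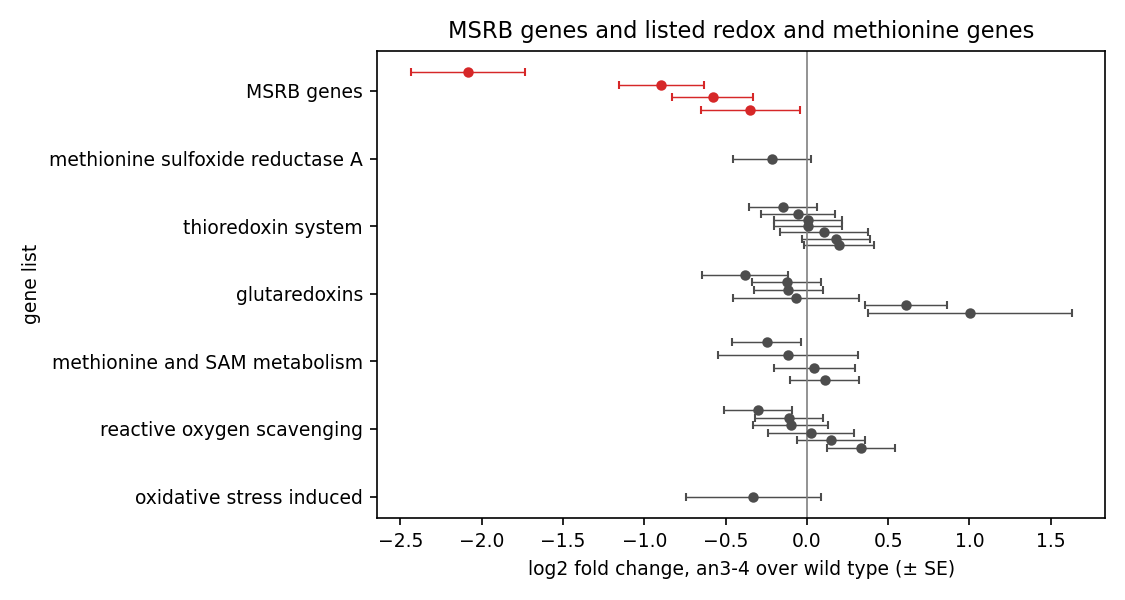
Log2 fold change ± SE of an3-4 over wild type for the 4 MSRB genes (red) and the 25 measured genes of 6 lists (grey), 1 point per gene. The MSRB points lie from -2.08 to -0.35, while the medians of the 4 lists with more than 1 measured gene lie between -0.09 and 0.01.

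The tissue label was checked on 5 of 11 listed leaf primordium genes. YAB3, YAB5, PHV, JAG and NUB had all signals above the floor, and none was called. Their summed signal was 822 to 1110 in wild type and 876 to 1051 in an3-4. CLV3, the 1 measured gene of 6 for the shoot meristem, lay under the floor on all arrays, and none of the 6 root genes had a probe set in the annotation used. RCA, rubisco activase, the 1 measured gene of 5 for mature leaf photosynthesis, was bright, with signals of 4405 and 5103 in wild type and of 4637 and 5215 in an3-4, and was not called. The genotype was not checked against AN3, which the annotation used does not name and which may be among the probe sets without a listed gene. The part of cell composition in the lower MSRB signals was not tested, and in whole primordia fewer cells of a type and less RNA per cell cannot be told apart.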

How the data were processed

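RNA of leaf primordia was hybridised to 4 arrays, 2 per genotype. The authors deposited linear signal intensities, 1 for each probe set, made with MAS5 per the submitters' processing notes, which name neither its version nor its target signal. Replicates were not pooled. Of 22810 probe sets, 64 controls were left out. Deposited intensities were taken to log2 without an offset and fitted in limma 3.58.1 under R 4.3.3 (lmFit, eBayes with an intensity trend, genotype as the only term, no signal filter), with Benjamini-Hochberg adjustment over 22746 probe sets and a call at an adjusted p under 0.05. Array medians differed by 0.30 on the log2 scale, under the limit of 0.5 for centring. The fit has 2 residual degrees of freedom, and limma's prior degrees of freedom were infinite. Each SE as deposited thus comes from the trend over all probe sets and not from the gene's own spread. At 1 trimmed mean the prior degrees of freedom were 6.96, so those SEs also use each probe set's own spread. A permutation over these 4 arrays cannot give a two-sided p below 0.333. Arrays have no counting depth; their number limits the precision.

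Names came from the platform annotation, updated through gene identifiers to RefSeq. Of 13513 probe sets with 1 gene, 13436 matched; 503 list several genes and 8730 none. For a gene with several probe sets, the brightest by mean log2 signal was used. The RefSeq table gave names, and gene order came from its start coordinates. No sequences were used. Members, gene lists, rules and alternatives were chosen with earlier results of these data known. Named were all MSRB probe sets, up to 4 called genes of each list and of each set of 20 neighbours (otherwise the 2 with the smallest p), and the 5 genes nearest to MSRB5. Marker genes, and DER2.2, AT4G04670, AT4G04750 and AT4G21870, are named outside this rule, these last 4 after their values were seen. As deposited, same-numbered arrays share a scale, with a log2 ratio of 0.24 between the trimmed means of replicates 2 and 1. The main fit leaves that shift in its residual, whose median SD was 0.26, against 0.14 with the replicate block. At 1 trimmed mean same-numbered arrays did not deviate together from their genotype means (r = -0.01 across probe sets). That r cannot see a shift shared by all probe sets. Replicate numbers were not treated as pairs in the main fit. The fit was tested on simulated data. Alternatives were other scales (1 trimmed mean, quantile, median), the dimmest 40% left out, an offset of 32, a floor at each array's 40th percentile, eBayes without the trend or robust, the replicate number as a block, and each array left out.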

Additional observations from a re-analysis of the deposited data

How the results depend on the processing

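In all 13 alternatives the log2 fold change stayed negative for MSRB3, MSRB5, MSRB6 and MSRB9. As a description of the values that chose the family, MSRB5 was called in 12 of 13, MSRB6 in 4, MSRB9 in 4 and MSRB3 in none. MSRB5 (-2.08) lost its call in eBayes without the trend, where limma called 0 probe sets and 1638 had an unadjusted p under 0.05. MSRB6 lost its call at 1 trimmed mean (-0.90), with quantile normalization (-0.94), median centring (-0.94), the offset of 32 (-0.69), the floor (-0.90) and without the trend (-0.90). MSRB9 gained a call at 1 trimmed mean (-0.58), with quantile normalization (-0.61), median centring (-0.63) and the replicate block (-0.58). Leaving out 1 array gave -2.36 to -1.81 for MSRB5, -1.21 to -0.58 for MSRB6, -0.85 to -0.31 for MSRB9 and -0.48 to -0.21 for MSRB3, while the median of all probe sets moved to between -0.12 and 0.17 because a genotype then holds 1 scale. Either wild-type array left out, replicate 1 (-0.61) or replicate 2 (-1.18), cost MSRB6 its call, as did leaving out an3-4 replicate 2 (-0.58). The cause of these changes was not tested. The count of 2 MSRB probe sets called lower became 1 with the offset or the floor, 0 without the trend, 3 with the replicate block, and 1 to 2 with 1 array left out. The tandem difference of -0.53 was -0.26 with the offset, -0.31 with the floor, and -0.85 to -0.21 with 1 array left out. Counts over all probe sets, 264 higher and 276 lower, were 604 and 570 at 1 trimmed mean, 531 and 546 under quantile normalization, 477 and 656 under median centring, 60 and 65 with the offset, 155 and 163 with the floor, 967 and 859 with the replicate block, and 87 to 161 higher and 60 to 274 lower with 1 array left out. GR1 gained a call with median centring (-0.35) and the replicate block (-0.30). With 1 array left out MMT ran from -0.021 to 0.24 and UPOX from -0.67 to 0.013. With the floor AT4G39753 and AT5G52330 had 0.060 each. All their signals lie under it, so this value is set by the floors of the arrays and not by these genes.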
